A study of Mus musculus with 8 samples.

Results

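The genes described here are 45 mouse genes of the germline, the PIWI-interacting RNA (piRNA) pathway and meiosis, out of 47069 genes in the complete count tables. They were found by matching their mouse symbols to the Ensembl identifiers of the tables, and each of the 45 has an entry. They fall into 11 genes of cohesin, the synaptonemal complex and the chromosome axis, 15 genes of the piRNA pathway and its Tudor domain proteins, and 19 other germ cell genes. Polyadenylated RNA was sequenced from C57BL/6 mouse embryonic stem (ES) cells in 4 groups of 2 libraries. These are Cas9-edited cells labelled as knockouts of both Pcgf3 and Pcgf5 (DKO), of Pcgf5 (Pcgf5KO) and of Pcgf3 (Pcgf3KO), and unedited wild-type cells (WT). All 4 groups were grown with serum and leukemia inhibitory factor on a layer of mitomycin-treated mouse embryonic fibroblasts, so each library can hold fibroblast RNA. The labels do not say if the 2 libraries of a group are separate cultures or how many edited clones they stand for, so p-values measure only the spread between these libraries, which may be technical.

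In germ cells, meiosis-specific cohesin and axis proteins organise the chromosomes along which the synaptonemal complex pairs homologues and in which recombination takes place. piRNAs are small RNAs that guide PIWI proteins to silence transposable elements, and Tudor domain proteins act as scaffolds of that pathway. ES cells hold most of these genes at a low level through promoter DNA methylation and a variant Polycomb complex built around Pcgf6, with Mga and Max, which bind the E-box, and E2f6, which binds the E2F site. Pcgf3 and Pcgf5, the genes edited here, encode RING finger proteins of other variant Polycomb complexes.

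The complete tables held between 12652616 and 19923964 counts per library. The table of WT replicate 1 used here breaks off after 8093 genes (17.2% of the list, 3459002 counts) and lists 9 of the 45 genes. The main test therefore covers 15669 genes in 7 libraries, in which WT is replicate 2 alone. Its spread is assumed to be that of the knockout groups, so on the WT side no fold change has a replicate check. A second test covers the 2702 genes that pass the filter on low counts among those listed in all 8 libraries. The DKO libraries stood furthest apart, with a chi-square per gene of 18.4 between replicates, against 1.88 in Pcgf5KO, 3.32 in Pcgf3KO and 6.57 in WT over the shared genes. Of the targeted genes, Pcgf3 had 86.6 and 67.2 counts per 1000000 (CPM) in DKO, 92.3 and 94.1 in Pcgf5KO, 66.1 and 60.5 in Pcgf3KO, and 110 in WT, and it was called lower in Pcgf3KO (log2 fold change −0.79 ± 0.14 (SE), adjusted p = 0.021) but not in DKO (−0.51 ± 0.14, adjusted p = 0.0899). Pcgf5 had 13.5 and 13.9 CPM in DKO, 12.3 and 9.06 in Pcgf5KO, 17.3 and 17.5 in Pcgf3KO, and 20.7 in WT, and it was called lower in Pcgf5KO (−0.94 ± 0.18, adjusted p = 0.0292) but not in DKO (−0.60 ± 0.18, adjusted p = 0.114). In DKO replicate 1 Pcgf3 was nearer to the Pcgf5KO libraries than to those of Pcgf3KO. RNA of both genes remained in every library that lists them, so these levels do not show whether the genes were disrupted, and the groups are named as labelled.

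The promoters of 40 of the 45 genes were found in RefSeq (build GRCm38.p6, which has the coordinates of mm10) as the 250 bases before the annotated start. The start nearest to the 5′ end of the gene in the count tables was used. It lay 69753 bases from that end for Prdm1, 4625 for Tex101, 1869 for Meioc, 1247 for Msh4 and 785 for Stra8, and at most 316 for the others. The E-box (CACGTG, the same on both strands) was found in 16 of these 40 promoters (40%), against 6.02% of all 32851 promoters of the same length. The E2F site (TCCCGC, or GCGGGA on the other strand) was found in 13 of 40 (32.5%), against 16.9% of all promoters. Both motifs occurred in 4 of 40 (10%), against 1.45% of all promoters, and no E-box overlapped an E2F site. The median number of CpG dinucleotides was 14 in the promoters of the 45 genes that were found, against 6 over all promoters. CpG content was not matched between these sets. The 32851 promoters are counted by start, so a gene can enter more than once, while each of the 40 genes enters once. Of the 9 found promoters whose gene was called higher than WT in a knockout in either test, 3 (33.3%) held an E-box and 4 (44.4%) held an E2F site. Of the 31 found promoters whose gene was not called against WT, 13 (41.9%) held an E-box and 9 (29.0%) held an E2F site. The 9 include Prdm1 with its distant start. A match describes the letters only and does not show that a factor binds there. The promoters of 6 genes whose levels are described below are printed 5′ to 3′ on the strand of the gene, with matches to either motif in capitals, to show how their motif content differs. Hormad1 (chr3:95559427-95559676, plus strand) holds 2 E-boxes and 1 E2F site, and Ddx4 (chr13:112652311-112652560, minus strand) holds 1 of each. Zglp1 (chr9:21067094-21067343, minus strand) holds 1 E-box, and Smc1b (chr15:85131958-85132207, minus strand) and Tex14 (chr11:87404815-87405064, plus strand) hold 1 E2F site each. Tdrd12 (chr7:35537745-35537994, minus strand) has neither motif in this window and 5 CpG.
Hormad1: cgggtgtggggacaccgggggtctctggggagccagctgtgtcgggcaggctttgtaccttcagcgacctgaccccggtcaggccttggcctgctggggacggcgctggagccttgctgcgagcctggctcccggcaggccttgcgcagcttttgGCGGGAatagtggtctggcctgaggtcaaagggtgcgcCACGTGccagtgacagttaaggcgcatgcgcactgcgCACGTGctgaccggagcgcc
Ddx4: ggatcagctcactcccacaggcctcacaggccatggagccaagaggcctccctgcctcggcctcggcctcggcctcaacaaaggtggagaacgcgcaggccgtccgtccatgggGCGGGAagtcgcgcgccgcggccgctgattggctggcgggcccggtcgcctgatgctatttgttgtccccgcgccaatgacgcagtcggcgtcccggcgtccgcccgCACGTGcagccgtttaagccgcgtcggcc
Zglp1: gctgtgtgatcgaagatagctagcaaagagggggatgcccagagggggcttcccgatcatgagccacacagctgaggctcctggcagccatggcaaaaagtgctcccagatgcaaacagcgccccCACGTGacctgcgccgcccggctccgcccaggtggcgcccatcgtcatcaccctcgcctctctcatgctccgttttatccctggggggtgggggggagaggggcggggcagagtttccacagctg
Smc1b: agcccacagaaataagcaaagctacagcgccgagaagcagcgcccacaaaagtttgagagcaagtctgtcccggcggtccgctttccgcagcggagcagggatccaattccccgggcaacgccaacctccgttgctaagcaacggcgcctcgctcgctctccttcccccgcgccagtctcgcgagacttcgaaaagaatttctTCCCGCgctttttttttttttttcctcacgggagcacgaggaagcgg
Tex14: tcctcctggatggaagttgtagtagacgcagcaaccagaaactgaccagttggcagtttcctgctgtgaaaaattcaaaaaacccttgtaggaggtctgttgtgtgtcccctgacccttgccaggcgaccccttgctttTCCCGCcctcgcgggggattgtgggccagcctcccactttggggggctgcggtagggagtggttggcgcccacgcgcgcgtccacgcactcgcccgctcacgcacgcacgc
Tdrd12: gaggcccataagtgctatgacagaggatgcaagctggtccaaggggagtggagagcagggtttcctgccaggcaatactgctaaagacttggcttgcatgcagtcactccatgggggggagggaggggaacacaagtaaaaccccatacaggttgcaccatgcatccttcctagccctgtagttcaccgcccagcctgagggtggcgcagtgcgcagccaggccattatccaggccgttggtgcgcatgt

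Of the 45 genes, 40 passed the filter on low counts and were tested: 10 of the 11 cohesin and synaptonemal complex genes, 13 of the 15 piRNA pathway genes and 17 of the 19 other germ cell genes. The 5 that did not pass were Syce3, Asz1, Fkbp6, Spo11 and Nanos3, with at most 9 counts in any library. Spo11, the enzyme that makes the meiotic double-strand breaks, had 2 counts in DKO replicate 1 and 0 in the other 6 libraries that list it. A count of 0 allows up to 3 counts, or 0.151 to 0.237 CPM depending on the library, by counting error alone. Per kilobase of exon, the level of the tested genes had a median of 1.06 CPM per kb, against 3.83 CPM per kb over all genes tested, and 9 of the 40 lay above that median. The highest level was that of Tdrd12 at 25.7 CPM per kb, which is at the 86.8th percentile of all genes tested, followed by Syce2 at 21.7, Ddx4 at 10.7, Dmc1 at 9.78 and Piwil2 at 9.62 CPM per kb. The lowest was Tdrd9, an RNA helicase of the piRNA pathway, at 0.0758 CPM per kb.

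**Figure D1:**
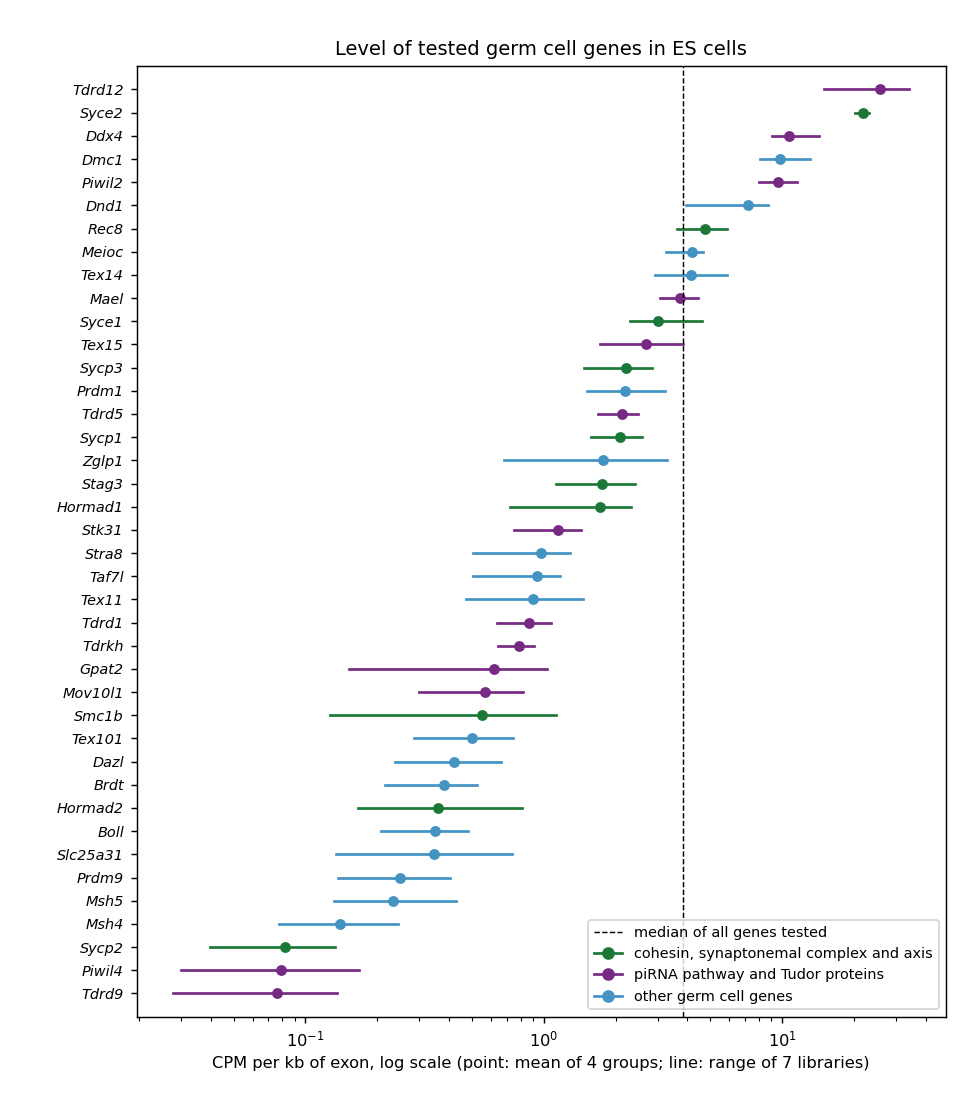
Level of the 40 tested germ cell genes in CPM per kb of exon on a log axis. Each point is the mean of the 4 group means, each line spans the 7 libraries with a complete table, colours give the class, and the dashed line is the median of all genes tested (3.83 CPM per kb), which 9 of the 40 genes exceed.

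Against WT, germ cell genes past the threshold were higher in DKO and in Pcgf3KO, while in Pcgf5KO 2 were higher and 1 was lower. In DKO 5 of the 40 tested genes rose and 0 fell, against 1.33% of all genes called higher and 1.89% called lower. The 5 are Smc1b, Hormad1, Stag3, Gpat2 and Tdrd12. In Pcgf5KO Tdrd12 and Zglp1 rose and Tex15 fell, against 1.31% of all genes called higher and 1.68% called lower. In Pcgf3KO 7 of 40 rose and 0 fell, against 1.08% called higher and 1.28% called lower, and the 7 are the 5 of DKO with Prdm1 and Tex14. Where 0 genes fell, 1 gene in DKO and 2 in Pcgf3KO were lower at an unadjusted p of at most 0.05, and DESeq2 also called 0. In either direction, 16 of the 40 reached that unadjusted level in DKO, 12 in Pcgf5KO and 18 in Pcgf3KO, against 19.4%, 19.5% and 15.9% of all genes tested. The median log2 fold change of the 40 genes was 0.41 in DKO, 0.17 in Pcgf5KO and 0.56 in Pcgf3KO, against 0.01, 0.01 and 0.00 over all genes tested. Of the 40, 31 were above 0 in DKO, 25 in Pcgf5KO and 30 in Pcgf3KO, against 51.6%, 50.6% and 50.3% of all genes tested. All 3 comparisons use the same WT library, so they are not independent of each other. The germ cell genes and the other gene lists were chosen with earlier results of these data known. Setting them beside all genes, here and below, is therefore not a test of an independently chosen set.

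The summed level of the 45 genes was 489 and 502 CPM in DKO, 457 and 448 CPM in Pcgf5KO, 518 and 504 CPM in Pcgf3KO, and 384 CPM in WT. Much of the distance from WT is Tdrd12: without it the other 44 genes summed to 341.5 and 382 CPM in DKO, 324 and 326 CPM in Pcgf5KO, 397 and 386 CPM in Pcgf3KO, and 319 CPM in WT. The Pcgf5KO sums then lay close to WT. The 18 feeder fibroblast markers summed to 142 and 176 CPM in DKO, 157 and 160 CPM in Pcgf5KO, 122 and 134 CPM in Pcgf3KO, and 210 CPM in WT, but single markers differed in direction. Of the 15 feeder markers tested, 4 fell in DKO, 1 in Pcgf5KO and 4 in Pcgf3KO against WT, and edgeR and DESeq2 called 0 higher. At an unadjusted p of at most 0.05, 1 was higher in DKO and 0 were higher in Pcgf5KO or Pcgf3KO. The log2 fold change was above 0 for 4 of the 15 in DKO, 1 in Pcgf5KO and 0 in Pcgf3KO, and ranged in DKO from −3.67 for Acta2 to 0.61 for Fbln2. S100a4 was at 0 in every library that lists it, and the markers' part in the results below was not tested. The 8 ES cell markers summed to 2869 and 3067 CPM in DKO, 3450 and 3475 CPM in Pcgf5KO, 3178 and 3292 CPM in Pcgf3KO, and 2764 CPM in WT. Of these 8, 0 were called higher than WT in DKO, 3 in Pcgf5KO and 1 in Pcgf3KO, and 0 were called lower. Over all genes 1.33%, 1.31% and 1.08% were called higher. The log2 fold change was above 0 for 5 of the 8 in DKO, 6 in Pcgf5KO and 7 in Pcgf3KO. The part of the ES cell markers was not tested either. Of the 6 markers of 2-cell-like cells, 4 were at 0 in every library and none had more than 6 counts in a library. In bulk RNA, more cells of a type and more RNA per cell cannot be told apart.

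The number of calls depended on which library was left out, with the lone library left in that group then assumed to vary like the others. With either DKO replicate left out, more germ cell genes were called higher than WT in each knockout group. With any single-knockout library left out, fewer were called higher in each group. The share of all genes called in these fits is not given here. These shifts therefore cannot be read as particular to germ cell genes. Over the 33 calls of a named gene in a comparison, in either test, 1 held with every library that could be left out. It was Tdrd12 in DKO against WT over 7 libraries. Only the 6 knockout libraries could be left out there, so the WT library that the call rests on was not checked.

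**Figure D2:**
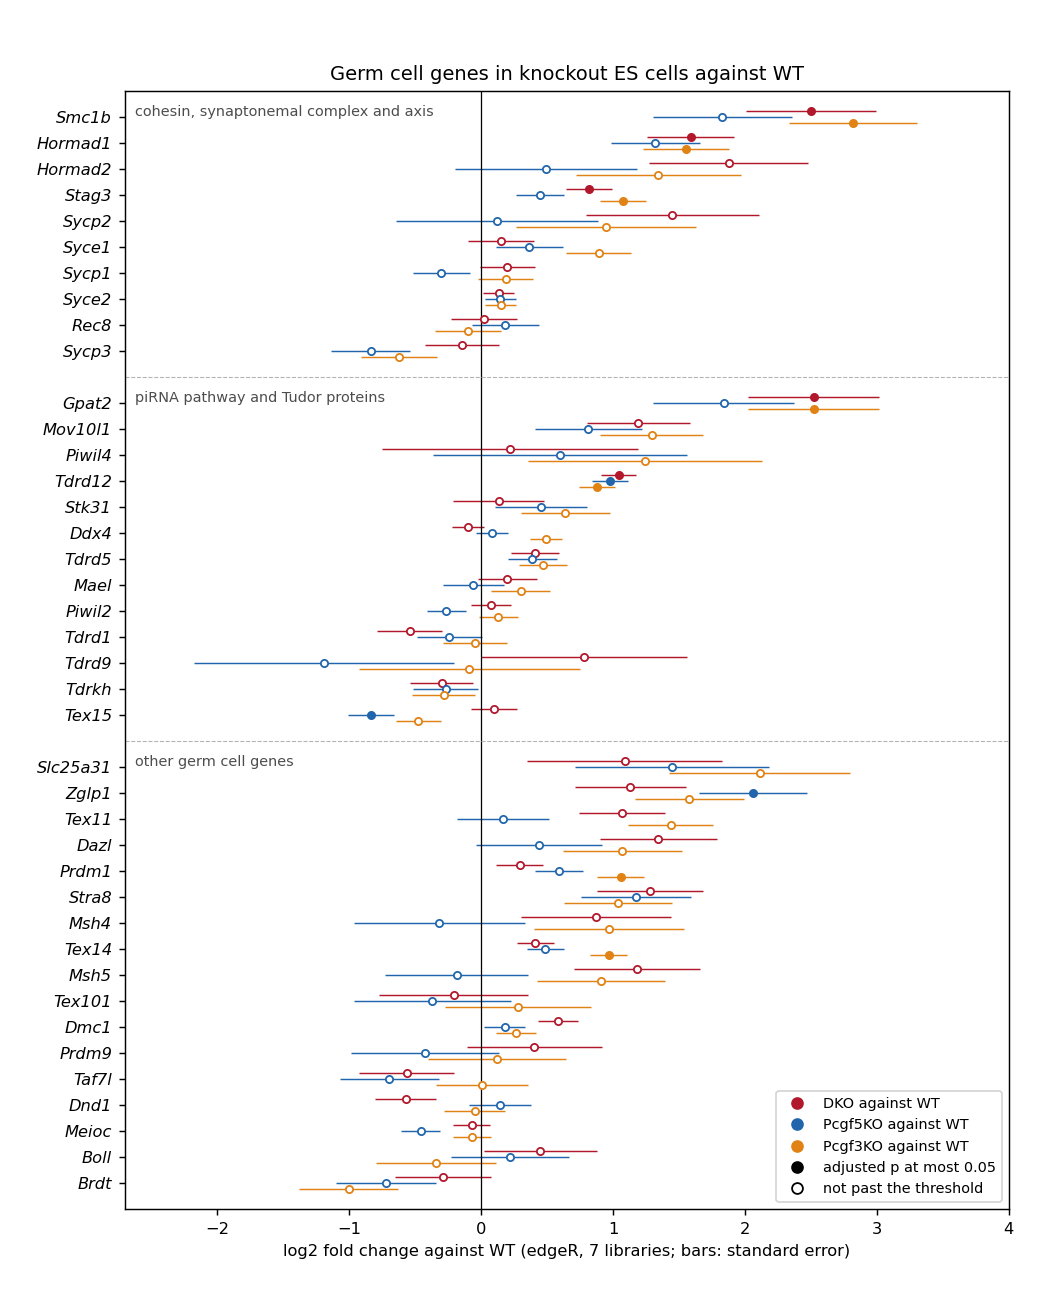
Log2 fold change against WT of the 40 tested germ cell genes in DKO, Pcgf5KO and Pcgf3KO, from the test on 7 libraries, in the 3 classes. Bars are standard errors and filled points have an adjusted p of at most 0.05, which are 5 genes in DKO, 3 in Pcgf5KO and 7 in Pcgf3KO.

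Among the cohesin, synaptonemal complex and axis genes, 3 of 10 tested rose in DKO, 0 in Pcgf5KO and 3 in Pcgf3KO, and 0 fell in any of them. Of all genes tested, 1.33% were called higher in DKO, 1.31% in Pcgf5KO and 1.08% in Pcgf3KO. The shares called lower were 1.89%, 1.68% and 1.28%. In Pcgf5KO, where edgeR and DESeq2 called 0, 3 of the 10 were higher and 1 was lower at an unadjusted p of at most 0.05. In either direction, 19.5% of all genes tested reached that level there. In DKO and Pcgf3KO 0 were lower at that level or by DESeq2. The 3 were Smc1b, Stag3 and Hormad1, which all act on the chromosome axis. The median log2 fold change of the 10 was 0.51 in DKO, 0.28 in Pcgf5KO and 0.92 in Pcgf3KO. Smc1b (ENSMUSG00000022432, chromosome 15, 85064691 to 85131957, mm10) encodes a meiosis-specific cohesin subunit. It had 3.11 and 2.77 CPM in DKO, 1.95 and 1.70 CPM in Pcgf5KO, 4.54 and 2.74 CPM in Pcgf3KO, and 0.512 CPM in WT. All 6 knockout libraries lay above the WT library, which rests on 9 counts, and the Pcgf3KO libraries lay far from each other. Against WT the log2 fold change of Smc1b was 2.50 ± 0.49 in DKO (adjusted p = 0.0291), 1.83 ± 0.53 in Pcgf5KO (adjusted p = 0.108) and 2.82 ± 0.48 in Pcgf3KO (adjusted p = 0.0187). The DKO call was lost without Pcgf5KO replicate 1 (adjusted p = 0.0752) or 2 (0.0747). The Pcgf3KO call was lost without Pcgf3KO replicate 1 (0.126), Pcgf5KO replicate 1 (0.0565) or Pcgf5KO replicate 2 (0.0566).

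Stag3 (ENSMUSG00000036928, chromosome 5, 138280240 to 138312393, mm10) encodes the meiosis-specific STAG subunit of cohesin. It had 11.0 and 11.8 CPM in DKO, 8.64 and 8.90 CPM in Pcgf5KO, 13.4 and 13.8 CPM in Pcgf3KO, and 6.43 CPM in WT. The groups did not overlap, in the order Pcgf3KO, DKO, Pcgf5KO and WT. The log2 fold change of Stag3 against WT was 0.82 ± 0.17 in DKO (adjusted p = 0.0385), 0.45 ± 0.18 in Pcgf5KO (adjusted p = 0.219) and 1.08 ± 0.17 in Pcgf3KO (adjusted p = 0.0149). DESeq2 gave an adjusted p of 0.0784 for Stag3 in DKO. With any 1 of the 4 single-knockout libraries left out neither call held, with adjusted p between 0.112 and 0.12 in DKO and between 0.0584 and 0.139 in Pcgf3KO.

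Hormad1 (ENSMUSG00000028109, chromosome 3, 95559677 to 95587671, mm10) encodes a HORMA domain protein of unsynapsed axes, and its promoter is the printed one with 2 E-boxes. It had 4.01 and 3.56 CPM in DKO, 2.78 and 3.56 CPM in Pcgf5KO, 3.63 and 3.75 CPM in Pcgf3KO, and 1.25 CPM in WT. Both Pcgf3KO libraries lay within the range of DKO, 1 Pcgf5KO library lay below it, and all 6 knockout libraries lay above WT. The log2 fold change of Hormad1 against WT was 1.59 ± 0.33 in DKO (adjusted p = 0.0337), 1.32 ± 0.34 in Pcgf5KO (adjusted p = 0.0775) and 1.55 ± 0.33 in Pcgf3KO (adjusted p = 0.0445). DESeq2 gave 0.055 in DKO and 0.0789 in Pcgf3KO. Without any 1 of the 4 single-knockout libraries neither call held, with adjusted p between 0.0805 and 0.099 in DKO and between 0.0975 and 0.24 in Pcgf3KO.

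The most abundant gene of this class per kb was Syce2, a central element protein of the synaptonemal complex. Syce2 had 41.5 and 45.6 CPM in DKO, 43.7 and 44.1 CPM in Pcgf5KO, 42.5 and 45.5 CPM in Pcgf3KO, and 39.7 CPM in WT. Its knockout groups overlapped each other, and its log2 fold change against WT was 0.13 ± 0.12 in DKO, 0.14 ± 0.12 in Pcgf5KO and 0.15 ± 0.12 in Pcgf3KO (adjusted p between 0.542 and 0.602). Rec8, the meiotic kleisin that closes the cohesin ring, had 10.6 and 17.2 CPM in DKO, 15.9 and 15.1 CPM in Pcgf5KO, 12.2 and 13.3 CPM in Pcgf3KO, and 13.7 CPM in WT, with the DKO libraries on either side of WT. Syce1, another central element protein, had 3.85 and 3.61 CPM in DKO, 4.44 and 4.21 CPM in Pcgf5KO, 6.75 and 5.70 CPM in Pcgf3KO, and 3.36 CPM in WT. Its Pcgf3KO libraries were the highest, but the log2 fold change of 0.89 ± 0.24 against WT did not pass (adjusted p = 0.1). The transverse filament gene Sycp1 and the lateral element genes Sycp2 and Sycp3 did not pass in any comparison. Sycp3 shares 660 of its 1264 exon bases with Chpt1 on the other strand, and since the NEBNext Ultra RNA kit gives no strand, reads there cannot be assigned to either gene.

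Among the piRNA pathway genes, 2 of 13 tested rose in DKO (Tdrd12 and Gpat2), Tdrd12 rose and Tex15 fell in Pcgf5KO, and 2 rose in Pcgf3KO (Tdrd12 and Gpat2). Beside them, 1.33% of all genes tested were called higher in DKO, 1.31% in Pcgf5KO and 1.08% in Pcgf3KO. In Pcgf5KO 1.68% of all genes were called lower. The median log2 fold change of the 13 was 0.20 in DKO, 0.08 in Pcgf5KO and 0.47 in Pcgf3KO. Tdrd12 (ENSMUSG00000030491, chromosome 7, 35469098 to 35537745, mm10) encodes a Tudor domain protein needed for the secondary piRNAs of the male germline. It had 148 and 120 CPM in DKO, 133 and 123 CPM in Pcgf5KO, 121 and 118 CPM in Pcgf3KO, and 64.9 CPM in WT. The range of DKO held both Pcgf5KO libraries and 1 Pcgf3KO library, and all 6 knockout libraries were well above WT. Against WT, Tdrd12 had a log2 fold change of 1.04 ± 0.13 in DKO (adjusted p = 0.00402), 0.98 ± 0.13 in Pcgf5KO (adjusted p = 0.00703) and 0.88 ± 0.13 in Pcgf3KO (adjusted p = 0.0114), the only 1 of the 40 genes called against WT in all 3. The DKO call held with each of the 6 knockout libraries left out, at log2 fold changes between 0.89 and 1.19. The Pcgf5KO call was lost without Pcgf5KO replicate 1 (0.0935) or 2 (0.058), and the Pcgf3KO call without Pcgf3KO replicate 1 (0.11) or 2 (0.0985).

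Gpat2 (ENSMUSG00000046338, chromosome 2, 127425199 to 127436092, mm10) encodes a mitochondrial outer membrane protein needed for primary piRNAs. It had 2.21 and 2.42 CPM in DKO, 1.30 and 1.62 CPM in Pcgf5KO, 2.72 and 1.90 CPM in Pcgf3KO, and 0.399 CPM in WT, where the library has 7 counts. The Pcgf5KO libraries lay between WT and the other 2 knockout groups. Against WT, Gpat2 had a log2 fold change of 2.52 ± 0.50 in DKO (adjusted p = 0.0292), 1.84 ± 0.53 in Pcgf5KO (adjusted p = 0.11) and 2.52 ± 0.50 in Pcgf3KO (adjusted p = 0.0345). With any 1 of the 4 single-knockout libraries left out, adjusted p lay between 0.0672 and 0.0772 in DKO and between 0.0866 and 0.219 in Pcgf3KO. Mov10l1, the RNA helicase that starts primary piRNA production, had 2.32 and 3.41 CPM in DKO, 1.95 and 2.51 CPM in Pcgf5KO, 2.87 and 3.30 CPM in Pcgf3KO, and 1.25 CPM in WT. All 6 knockout libraries were above WT, and no comparison passed (adjusted p = 0.145 in DKO, 0.311 in Pcgf5KO and 0.132 in Pcgf3KO).

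Tex15 (ENSMUSG00000009628, chromosome 8, 33516738 to 33585582, mm10), a nuclear factor of piRNA-directed transposon silencing in fetal male germ cells, was the 1 gene that fell. It had 29.0 and 36.7 CPM in DKO, 17.8 and 16.6 CPM in Pcgf5KO, 24.2 and 20.0 CPM in Pcgf3KO, and 30.7 CPM in WT. The DKO libraries lay on either side of WT, and those of both single knockouts lay below it. The log2 fold change of Tex15 against WT was 0.10 ± 0.17 in DKO (adjusted p = 0.789), −0.83 ± 0.18 in Pcgf5KO (adjusted p = 0.0385) and −0.47 ± 0.17 in Pcgf3KO (adjusted p = 0.213). The Pcgf5KO call was lost without any 1 of the 4 single-knockout libraries (adjusted p between 0.0879 and 0.275). Ddx4 (ENSMUSG00000021758, chromosome 13, 112598333 to 112652310, mm10), the germ cell RNA helicase also known as Vasa, had 27.5 and 27.4 CPM in DKO, 31.7 and 30.6 CPM in Pcgf5KO, 43.1 and 39.5 CPM in Pcgf3KO, and 29.4 CPM in WT. The DKO libraries were the lowest and the Pcgf3KO libraries the highest, with no overlap. Against WT, Ddx4 did not pass in DKO (−0.10 ± 0.12, adjusted p = 0.69), Pcgf5KO (0.08 ± 0.12, adjusted p = 0.758) or Pcgf3KO (0.49 ± 0.12, adjusted p = 0.0713).

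Piwil2, the PIWI protein known as Mili, had 46.8 and 60.7 CPM in DKO, 42.2 and 43.0 CPM in Pcgf5KO, 54.3 and 57.6 CPM in Pcgf3KO, and 51.1 CPM in WT. The Pcgf5KO libraries were the lowest, and no comparison of Piwil2 passed (adjusted p between 0.138 and 0.832). Piwil4, a PIWI protein that enters the nucleus in fetal male germ cells, had at most 18 counts in any library and did not pass either. Of the Tudor domain genes beside Tdrd12, Tdrd1, Tdrd5, Tdrd9 and Tdrkh did not pass in any comparison, and Tdrkh shares 2255 exon bases with Oaz3 on the other strand.

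Among the other germ cell genes, 0 of 17 tested passed in DKO, Zglp1 rose in Pcgf5KO, and Tex14 and Prdm1 rose in Pcgf3KO, while 0 fell. The shares of all genes called higher were 1.33% in DKO, 1.31% in Pcgf5KO and 1.08% in Pcgf3KO, and 1.89%, 1.68% and 1.28% lower. In DKO, where edgeR and DESeq2 called 0, 7 of the 17 were higher and 1 was lower at an unadjusted p of at most 0.05. In either direction, 19.4% of all genes tested reached that level there. In Pcgf5KO and Pcgf3KO 1 was lower at that level in each and DESeq2 called 0 lower. The median log2 fold change of the 17 was 0.45 in DKO, 0.17 in Pcgf5KO and 0.91 in Pcgf3KO. Tex14 (ENSMUSG00000010342, chromosome 11, 87405065 to 87555823, mm10) encodes a protein of the bridges that connect germ cells. It had 19.0 and 20.0 CPM in DKO, 20.0 and 21.1 CPM in Pcgf5KO, 29.4 and 27.8 CPM in Pcgf3KO, and 14.6 CPM in WT. The DKO and Pcgf5KO libraries were close together, above WT and below Pcgf3KO. The log2 fold change of Tex14 against WT was 0.41 ± 0.14 in DKO (adjusted p = 0.153), 0.49 ± 0.14 in Pcgf5KO (adjusted p = 0.105) and 0.97 ± 0.14 in Pcgf3KO (adjusted p = 0.00905). The Pcgf3KO call was lost without Pcgf3KO replicate 1 (adjusted p = 0.11) or 2 (0.0797).

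Prdm1 (ENSMUSG00000038151, chromosome 10, 44437177 to 44528501, mm10) encodes Blimp1, a transcriptional repressor that specifies primordial germ cells. It had 10.9 and 9.74 CPM in DKO, 11.8 and 13.8 CPM in Pcgf5KO, 17.9 and 17.2 CPM in Pcgf3KO, and 8.43 CPM in WT. The groups did not overlap, with Pcgf3KO the highest and WT the lowest. Against WT, Prdm1 had a log2 fold change of 0.29 ± 0.18 in DKO (adjusted p = 0.41), 0.59 ± 0.18 in Pcgf5KO (adjusted p = 0.126) and 1.06 ± 0.18 in Pcgf3KO (adjusted p = 0.0171). The Pcgf3KO call was lost without any 1 of the 4 single-knockout libraries (adjusted p between 0.0551 and 0.155). Zglp1 (ENSMUSG00000079681, chromosome 9, 21062393 to 21067093, mm10) encodes a zinc finger regulator of the oogenic fate. It had 1.53 and 1.73 CPM in DKO, 2.72 and 3.56 CPM in Pcgf5KO, 2.32 and 2.13 CPM in Pcgf3KO, and 0.740 CPM in WT. All 6 knockout libraries were above WT, with no overlap between groups. Against WT, Zglp1 had a log2 fold change of 1.13 ± 0.42 in DKO (adjusted p = 0.191), 2.06 ± 0.41 in Pcgf5KO (adjusted p = 0.0317) and 1.58 ± 0.41 in Pcgf3KO (adjusted p = 0.0845). The Pcgf5KO call was lost without any 1 of the 4 single-knockout libraries (adjusted p between 0.0966 and 0.23). Zglp1 shares 1003 of its 1088 exon bases with Gm49373 on the same strand, so how its reads were split between the 2 is uncertain.

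Dmc1 (ENSMUSG00000022429, chromosome 15, 79561500 to 79605084, mm10), the recombinase of meiotic strand exchange, had 31.9 and 27.1 CPM in DKO, 21.2 and 23.5 CPM in Pcgf5KO, 22.8 and 24.6 CPM in Pcgf3KO, and 19.7 CPM in WT. The DKO libraries were the highest, but the log2 fold change of 0.58 ± 0.15 against WT did not pass over 7 libraries (adjusted p = 0.0777). Meioc, needed for germ cells to stay in meiotic prophase, had 19.1 and 21.4 CPM in DKO, 16.0 and 15.0 CPM in Pcgf5KO, 21 and 19.6 CPM in Pcgf3KO, and 21.3 CPM in WT. Its Pcgf5KO libraries were the lowest and did not pass (−0.46 ± 0.14, adjusted p = 0.135). Dnd1, an RNA-binding protein of primordial germ cell survival, had 9.54 and 15.3 CPM in DKO, 21 and 19.8 CPM in Pcgf5KO, 18.6 and 17.2 CPM in Pcgf3KO, and 18.5 CPM in WT. The DKO libraries lay far apart and below all others, with no call (−0.57 ± 0.23 against WT, adjusted p = 0.221). Stra8, which is switched on by retinoic acid at meiotic entry, and Dazl, a translational regulator of germ cells, had at most 48 counts in any library. Stra8 had a log2 fold change against WT of 1.28 ± 0.40 in DKO (adjusted p = 0.133), 1.18 ± 0.41 in Pcgf5KO (0.169) and 1.04 ± 0.41 in Pcgf3KO (0.252). For Dazl it was 1.34 ± 0.44 in DKO (adjusted p = 0.146), 0.44 ± 0.48 in Pcgf5KO (0.662) and 1.07 ± 0.45 in Pcgf3KO (0.28).

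**Figure D3:**
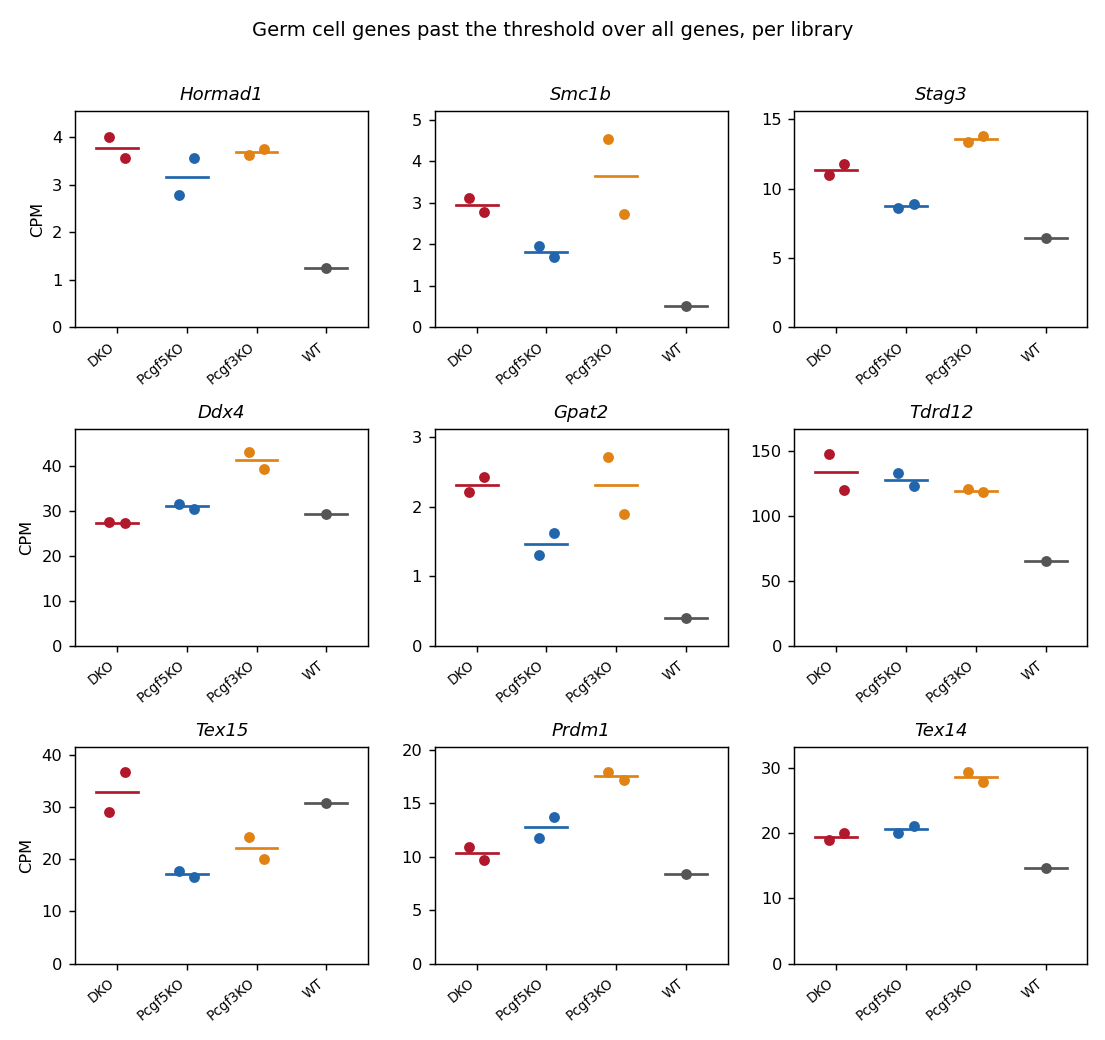
CPM of 9 of the 10 germ cell genes past the threshold over 7 libraries (Zglp1 is in the plot of genes listed in all 8 tables), in each library of DKO, Pcgf5KO, Pcgf3KO and WT (points; lines are group means, and WT is 1 library). Smc1b, Hormad1, Stag3, Gpat2, Tdrd12, Prdm1 and Tex14 are above WT in all 6 knockout libraries. Stag3, Ddx4, Prdm1 and Tex14 are highest in both Pcgf3KO libraries, and Tex15 is lowest in both Pcgf5KO libraries.

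Comparing the knockouts with each other leaves the WT library out of the contrast. Between DKO and Pcgf3KO, 0 of the 40 genes rose (115 of all genes tested, 0.734%) and 3 fell (1.0% of all genes), which were Ddx4, Prdm1 and Tex14. Their log2 fold changes were −0.59 ± 0.10 for Ddx4 (adjusted p = 0.0203), −0.77 ± 0.14 for Prdm1 (adjusted p = 0.0286) and −0.56 ± 0.11 for Tex14 (adjusted p = 0.0357). For each of the 3, both DKO libraries lay below both Pcgf3KO libraries. The 3 calls were lost without any 1 of the 4 single-knockout libraries, with adjusted p between 0.0897 and 0.312 for Ddx4, 0.0897 and 0.312 for Prdm1, and 0.128 and 0.361 for Tex14. At an unadjusted p of at most 0.05, 2 genes were higher in DKO and 6 were lower (18.2% of all genes reached that level in either direction), and DESeq2 called 1 higher and 3 lower. Between DKO and Pcgf5KO, Tex15 rose (0.93 ± 0.15, adjusted p = 0.0221) and 0 genes fell, against 0.996% of all genes called higher and 1.28% called lower. The Tex15 call was lost without any 1 of the 4 single-knockout libraries (adjusted p between 0.0619 and 0.324). At an unadjusted p of at most 0.05, 14 genes were higher in DKO than in Pcgf5KO and 2 were lower (25.8% of all genes in either direction), and DESeq2 called 1 in each direction. For these contrasts, 5 feeder markers were called higher and 2 lower in DKO than in Pcgf3KO, and 2 higher and 3 lower than in Pcgf5KO. Their part was not tested.

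Between Pcgf5KO and Pcgf3KO, edgeR called 0 of the 40 genes in either direction, against 0.0893% of all genes called higher and 0.0511% called lower, and DESeq2 called 0 as well. At an unadjusted p of at most 0.05, 0 of the 40 were higher in Pcgf5KO and 13 were lower, against 8.5% of all genes in either direction. The median log2 fold change of the 40 was −0.44, against 0.00 over all genes tested, and 8 of the 40 were above 0, against 50.5% of all genes. For 25 of the 40, both Pcgf5KO libraries lay below both Pcgf3KO libraries, as did 26.5% of all genes, and for 5 they lay above, as did 27.4% of all genes. Tex11 and Smc1b had log2 fold changes of −1.27 ± 0.26 (adjusted p = 0.153) and −0.99 ± 0.31 (adjusted p = 0.45). No feeder marker was called in this comparison by edgeR or DESeq2 (5 were higher in Pcgf5KO and 0 lower at an unadjusted p of at most 0.05), and their sums were 157 and 160 CPM in Pcgf5KO and 122 and 134 CPM in Pcgf3KO. With either DKO replicate left out, edgeR did call genes of the 40 lower. The share of all genes called lower in those fits is not given here. Whether that shift is particular to germ cell genes was not tested.

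The interaction is the log2 change in DKO minus the sum of the log2 changes in the single knockouts, all against WT. It passed for 1 of the 40 genes above 0 and 5 below, against 1.77% of all genes above and 2.02% below (3.79% in either direction). The gene above 0 was Tex15 (1.41 ± 0.23, adjusted p = 0.0123), which was lower in the single knockouts and near WT in DKO. The genes below 0 were Zglp1 (−2.51 ± 0.50, adjusted p = 0.0284), Prdm1 (−1.36 ± 0.23, adjusted p = 0.0142), Tex14 (−1.04 ± 0.17, adjusted p = 0.0142), Tdrd12 (−0.81 ± 0.17, adjusted p = 0.0307) and Ddx4 (−0.67 ± 0.16, adjusted p = 0.0476). For Tdrd12 the DKO change was about as large as either single change. The interaction counts the 1 WT library once with a positive sign, so an error in that library moves it. Each of the 6 calls was lost without any 1 of the 4 single-knockout libraries, with adjusted p between 0.0541 and 0.236, and DESeq2 gave 0.067 for Ddx4.

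For the germ cell genes that the shorter WT table also lists, WT has 2 libraries, and levels are CPM of the shared genes, which are higher numbers than those above. Of the 9 listed genes, 6 passed the filter: Gpat2, Mov10l1, Dmc1, Tex11, Zglp1 and Slc25a31. Of the 6, 3 rose in DKO (Gpat2, Tex11 and Dmc1), 1 in Pcgf5KO (Zglp1) and 3 in Pcgf3KO (Gpat2, Tex11 and Zglp1), and 0 fell. The same calls over all genes in this test were 4.4% higher and 3.7% lower in DKO, 4.33% and 4.29% in Pcgf5KO, and 3.18% and 2.33% in Pcgf3KO. No gene of the 6 was lower than WT at an unadjusted p of at most 0.05 or by DESeq2. Gpat2 had 12.5 and 13.7 CPM in DKO, 7.31 and 9.05 CPM in Pcgf5KO, 15.3 and 10.7 CPM in Pcgf3KO, and 4.0 and 2.25 CPM in WT. Each knockout group lay above both WT libraries, with log2 fold changes of 2.04 ± 0.38 in DKO (adjusted p = 0.00856), 1.35 ± 0.42 in Pcgf5KO (adjusted p = 0.0723) and 2.04 ± 0.38 in Pcgf3KO (adjusted p = 0.0115). The DKO call of Gpat2 was lost without WT replicate 2 (adjusted p = 0.0779), and the Pcgf3KO call without Pcgf3KO replicate 1 (0.142), WT replicate 1 (0.0513) or WT replicate 2 (0.111).

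Tex11 (ENSMUSG00000009670, chromosome X, 100838648 to 101059667, mm10), an X-linked gene needed for meiotic crossovers, had 20.6 and 24.0 CPM in DKO, 9.63 and 14.5 CPM in Pcgf5KO, 27.5 and 30.0 CPM in Pcgf3KO, and 10.6 and 10.6 CPM in WT. The Pcgf5KO libraries lay on either side of WT, and those of DKO and Pcgf3KO lay above. Its log2 fold change was 1.07 ± 0.25 in DKO (adjusted p = 0.0262), 0.16 ± 0.28 in Pcgf5KO (adjusted p = 0.763) and 1.44 ± 0.25 in Pcgf3KO (adjusted p = 0.00785). The DKO call of Tex11 was lost without Pcgf3KO replicate 1 (0.0532) or 2 (0.0516) and without WT replicate 1 (0.161) or 2 (0.115). The Pcgf3KO call was lost without Pcgf3KO replicate 2 (0.0681) and without WT replicate 1 (0.068) or 2 (0.0672). Zglp1 had 8.64 and 9.78 CPM in DKO, 15.3 and 19.9 CPM in Pcgf5KO, 13.1 and 12 CPM in Pcgf3KO, and 4.86 and 4.18 CPM in WT. The order of the groups was that of the 7 libraries, with log2 fold changes of 1.02 ± 0.33 in DKO (adjusted p = 0.0801), 1.94 ± 0.32 in Pcgf5KO (adjusted p = 0.00467) and 1.46 ± 0.32 in Pcgf3KO (adjusted p = 0.0237). Its interaction passed here too (−2.38 ± 0.43, adjusted p = 0.0102, as for 6.92% of all genes in this test), but not without WT replicate 2 (0.0553), Pcgf3KO replicate 1 (0.0604) or Pcgf5KO replicate 2 (0.0741). The Pcgf5KO call of Zglp1 was lost without Pcgf5KO replicate 2 (0.0798) or WT replicate 2 (0.0547), and the Pcgf3KO call without any 1 of the Pcgf3KO or WT libraries (0.112 to 0.195). Dmc1 had 181 and 153 CPM in DKO, 119 and 132 CPM in Pcgf5KO, 129 and 139 CPM in Pcgf3KO, and 109 and 111 CPM in WT, and rose in DKO (0.60 ± 0.12, adjusted p = 0.0107) but did not pass in Pcgf5KO (adjusted p = 0.381) or Pcgf3KO (adjusted p = 0.217). The DKO call of Dmc1 was lost without WT replicate 1 (0.0936) or 2 (0.0674).

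Mov10l1 did not pass with the second WT library (0.99 ± 0.31 in DKO, adjusted p = 0.0676, and 1.09 ± 0.30 in Pcgf3KO, adjusted p = 0.0638). Slc25a31, a germ cell ADP/ATP carrier of mitochondria, had 22 and 5 counts in the WT libraries, so its 2 WT values of 6.29 and 1.61 CPM lay on either side of 5 of the 6 knockout values. Its log2 fold change in Pcgf3KO was 0.80 ± 0.54 with both WT libraries, against 2.11 ± 0.69 with WT replicate 2 alone, and neither passed. Without WT replicate 1, 1 of the 6 genes was higher in DKO, 1 in Pcgf5KO and 0 in Pcgf3KO, and without WT replicate 2 the count was 0 in all 3.

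**Figure D4:**
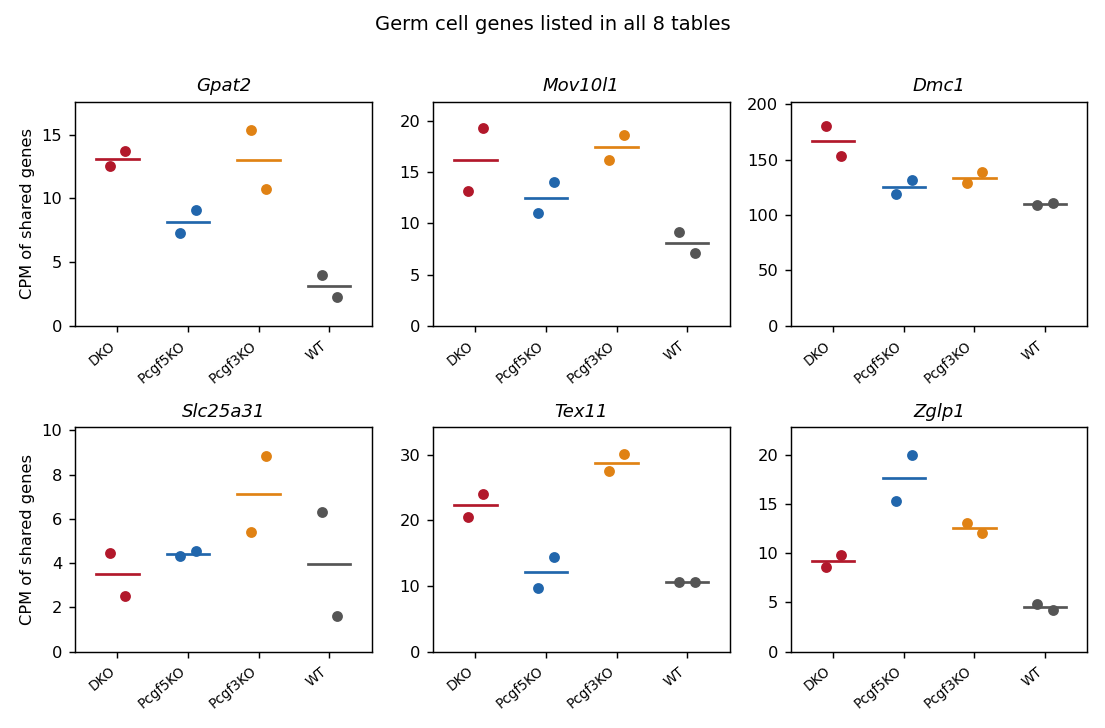
Levels of the 6 tested germ cell genes listed in all 8 tables, in CPM of the shared genes, in each library of DKO, Pcgf5KO, Pcgf3KO and WT (points; lines are group means of 2 libraries). The WT libraries are close for Dmc1, Tex11 and Zglp1 and apart for Slc25a31 (6.29 and 1.61 CPM).

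Related genes outside the 45 were counted from lists of other meiosis genes, other piRNA genes and subunits of the Pcgf6 complex. Of 17 other meiosis genes tested, 1 rose against WT in each of DKO, Pcgf5KO and Pcgf3KO, and it was Rec114 each time. edgeR and DESeq2 called 0 of the 17 lower, and 0 in DKO, 1 in Pcgf5KO and 0 in Pcgf3KO were lower at an unadjusted p of at most 0.05. Rec114, a partner of the double-strand break machinery, had 11.0 and 9.64 CPM in DKO, 7.87 and 9.22 CPM in Pcgf5KO, 10.2 and 9.17 CPM in Pcgf3KO, and 2.56 CPM in WT. Its log2 fold change against WT was 2.01 ± 0.24 in DKO (adjusted p = 0.00288), 1.73 ± 0.24 in Pcgf5KO (adjusted p = 0.00778) and 1.92 ± 0.24 in Pcgf3KO (adjusted p = 0.00476). The DKO call of Rec114 held with each of the 6 knockout libraries left out. Its Pcgf5KO call was lost without Pcgf5KO replicate 1 or 2, and its Pcgf3KO call without Pcgf3KO replicate 1. Of 15 other piRNA genes tested, Dnmt3l and Morc1 rose in each of DKO, Pcgf5KO and Pcgf3KO. Beside both lists, 1.33% of all genes were called higher in DKO, 1.31% in Pcgf5KO and 1.08% in Pcgf3KO. edgeR and DESeq2 called 0 of the 15 lower, and 1 in DKO, 0 in Pcgf5KO and 1 in Pcgf3KO were lower at an unadjusted p of at most 0.05.

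Dnmt3l, the cofactor of the DNA methyltransferases in the germline and in ES cells, had 484 and 501 CPM in DKO, 564 and 559 CPM in Pcgf5KO, 642 and 695 CPM in Pcgf3KO, and 212 CPM in WT. Its log2 fold change against WT was 1.22 ± 0.09 in DKO (adjusted p = 0.000563), 1.40 ± 0.09 in Pcgf5KO (adjusted p = 0.000692) and 1.66 ± 0.09 in Pcgf3KO (adjusted p = 0.000207). These 3 calls held with each of the 6 knockout libraries left out, at log2 fold changes between 1.19 and 1.71. Morc1, which silences transposons in male germ cells, had 79.7 and 53.6 CPM in DKO, 68.7 and 59.7 CPM in Pcgf5KO, 56.1 and 50.9 CPM in Pcgf3KO, and 24.0 CPM in WT. Its log2 fold change was 1.47 ± 0.22 in DKO (adjusted p = 0.00976), 1.42 ± 0.22 in Pcgf5KO (adjusted p = 0.0138) and 1.16 ± 0.22 in Pcgf3KO (adjusted p = 0.0299). The DKO call of Morc1 held with each of the 6 knockout libraries left out. Its Pcgf5KO call was lost without Pcgf5KO replicate 1 or 2, and its Pcgf3KO call without any 1 of the 4 single-knockout libraries. The 1 WT library in these 3 genes has no replicate check, since the shorter WT table does not list them. Dnmt3l was also lower in DKO than in Pcgf3KO (−0.44 ± 0.07, adjusted p = 0.0181). Ythdc2 of the meiosis list was higher in DKO than in Pcgf5KO (0.54 ± 0.115, adjusted p = 0.0466). The interaction, which uses the same WT library, passed below 0 for Dnmt3l (−1.84 ± 0.11), Rec114 (−1.64 ± 0.29) and Btbd18 of the piRNA list (−2.58 ± 0.57). Of these calls, only the Dnmt3l interaction held with each of the 6 knockout libraries left out.

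Of the 14 tested subunits of the Pcgf6 complex, edgeR and DESeq2 called 0 in every comparison. Against WT, 1 was higher and 3 were lower in DKO, 1 was higher and 2 were lower in Pcgf5KO, and 0 were higher or lower in Pcgf3KO at an unadjusted p of at most 0.05. In either direction, 19.4%, 19.5% and 15.9% of all genes tested reached that level in DKO, Pcgf5KO and Pcgf3KO. Pcgf6 had 69.9 and 66.7 CPM in DKO, 70.6 and 66.2 CPM in Pcgf5KO, 82.1 and 64.7 CPM in Pcgf3KO, and 60.2 CPM in WT. Its knockout libraries overlapped, and its log2 fold change against WT was 0.18 ± 0.14 in DKO, 0.19 ± 0.14 in Pcgf5KO and 0.29 ± 0.14 in Pcgf3KO (adjusted p between 0.373 and 0.518).

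**Figure D5:**
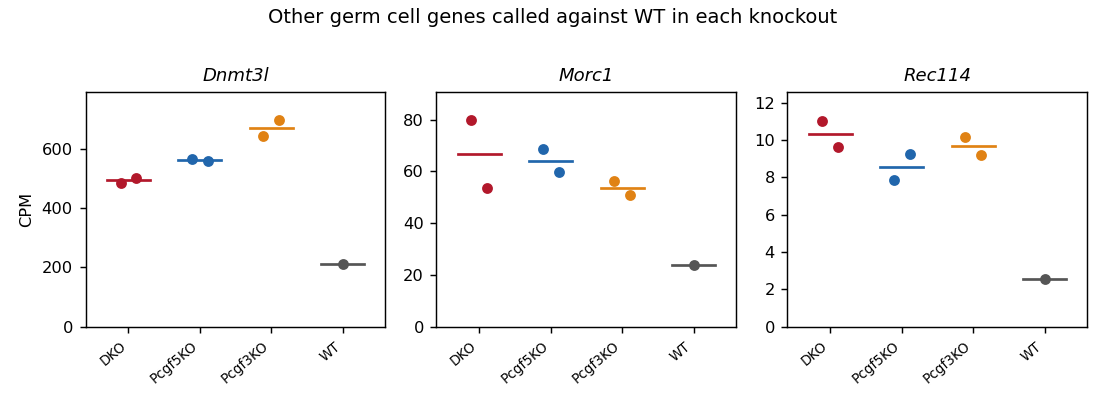
CPM of Dnmt3l, Morc1 and Rec114, the related genes called against WT in each knockout, in each library of DKO, Pcgf5KO, Pcgf3KO and WT (points; lines are group means, and WT is 1 library). The WT library is the lowest for each gene, at 212, 24.0 and 2.56 CPM.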

How the data were processed

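Per the file headers and the values, the deposited tables give 1 whole-number read count for each Ensembl gene, with its position, in a separate table for each library. The submitters' processing notes name, with no order, HTSeq 0.6.0, TopHat2 2.0.12, Cufflinks 2.2.1 and mm10 as the build. Annotation release, strand setting and filters: not given in the sources used here. GENCODE M21 supplied symbols for 46488 of 47069 identifiers. Genes missing from the shorter WT table were treated as not measured.

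edgeR 4.0.16 (R 4.3.3) fitted all groups together by quasi-likelihood, with TMM scaling and filterByExpr by group. The 7 libraries leave 3 residual degrees of freedom. The threshold for a call is an adjusted p (Benjamini-Hochberg, across the whole table) of 0.05 or less, and adjusted p-values are edgeR's unless DESeq2 (1.42.0, Wald test) is named. Errors printed with log2 fold changes are standard errors. CPM were computed here from the counts and edgeR's effective library sizes, and levels per kb use GENCODE M21 exon lengths. The fits were run on simulated data in which every library had the same spread. That cannot check them where the spread differs between groups, as it did here. Floors from a count of 0 cover counting error only.

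The 45 genes and the other lists were chosen with earlier results of these data known. Full values are given for genes called in any comparison of either test and for the most abundant per kb, with at least 3 in each class. Other genes named beside them were chosen after their values were seen. Alternatives were a replicate block, DESeq2 size factors, DESeq2, no filter, a CPM of at least 1 in 2 libraries, and leaving out each library.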

Additional observations from a re-analysis of the deposited data

Results flagged for a closer look

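The test of the interaction found that the DKO change against WT differed from the sum of the single-knockout changes for 6 of the 40 germ cell genes over 7 libraries. On the log2 scale the difference was 1.41 for Tex15, −1.04 for Tex14, −0.67 for Ddx4, −0.81 for Tdrd12, −1.36 for Prdm1 and −2.51 for Zglp1. For Zglp1 the 8 libraries, with both WT replicates, gave −2.38. Over all genes, 3.79% passed this test in 7 libraries and 6.92% in 8, so germ cell genes were not alone in it. All these values use the WT library in which the summed feeder markers were highest (142 and 176 CPM in DKO, 157 and 160 CPM in Pcgf5KO, 122 and 134 CPM in Pcgf3KO, 210 CPM in WT), and the part of feeder RNA in them was not tested.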

How the results depend on the processing

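Counts are of germ cell genes called over 7 libraries, out of 40 tested in the main fit. A changed filter or a library left out can change which genes are tested, so those counts can have other totals. The share of all genes called under each alternative is not given here. A moved count therefore cannot be read as particular to germ cell genes. DESeq2 size factors and the stricter filter moved no count beyond 1.5 times, and no call turned its direction under any alternative. With no filter on low counts, which adds genes to the test, the counts became 10 higher and 1 lower in DKO against WT, 5 higher in Pcgf5KO against WT, 13 higher in Pcgf3KO against WT, 1 higher and 5 lower in DKO against Pcgf3KO, 6 higher and 2 lower in DKO against Pcgf5KO, 2 lower in Pcgf5KO against Pcgf3KO, 2 above 0 for the interaction, and 2 of the genes in all 8 tables higher in Pcgf5KO. DESeq2 called 3 higher in DKO against WT, 1 higher in DKO against Pcgf3KO and 1 lower in DKO against Pcgf5KO. The causes were not tested. Leaving out 1 library gave, from lowest to highest, in DKO against WT 1 to 12 higher and 0 to 1 lower, in Pcgf5KO against WT 0 to 9 and 0 to 4, in Pcgf3KO against WT 0 to 14 and 0 to 2, in DKO against Pcgf3KO 0 to 3 and 0 to 8, in DKO against Pcgf5KO 0 to 12 and 0 to 4, in Pcgf5KO against Pcgf3KO 0 to 13 lower, and for the interaction 0 to 5 above and 0 to 14 below. For the genes in all 8 tables these were 0 to 4 higher in DKO, 0 to 2 in Pcgf5KO and 0 to 4 in Pcgf3KO. Over 7 libraries the high ends above 0 came without DKO replicate 1 or 2. Without WT replicate 2 no 7-library comparison with WT and no interaction could be fitted.

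Of the 33 calls, 29 held in every setting that kept all libraries. The replicate numbers did not pair the samples: replicate differences correlated at 0.015 (DKO with Pcgf5KO), 0.158 (DKO with Pcgf3KO) and −0.0284 (Pcgf5KO with Pcgf3KO) over genes. With a replicate block, DKO against Pcgf5KO had 2 genes higher and 1 lower, Hormad1 in Pcgf3KO had an adjusted p of 0.0506, and no other count of calls moved beyond 1.5 times. At 12652616 to 19923964 counts a library, genes such as Smc1b and Gpat2 rest on 9 and 7 counts in the WT library.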

Other observations

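Genes that act on DNA methylation or on the repressive histone H3K9 mark were counted beside the germ cell genes. Of the 10 tested, 0 were called higher than WT in DKO, 1 in Pcgf5KO and 0 in Pcgf3KO, and 0 lower. Over all genes 1.33%, 1.31% and 1.08% were called higher. The log2 fold change was above 0 for 7, 10 and 8 of the 10. It was largest for Tet2, at 1.35, 0.99 and 1.45, which did not pass (adjusted p = 0.0956, 0.195 and 0.0829). Uhrf1, which brings the maintenance methyltransferase to replicated DNA, had 543 and 577 CPM in DKO, 588 and 572 CPM in Pcgf5KO, 504 and 542 CPM in Pcgf3KO, and 437 CPM in WT. It rose against WT in Pcgf5KO (log2 fold change 0.41 ± 0.09, adjusted p = 0.0425) but not in DKO (adjusted p = 0.0647) or Pcgf3KO (0.179). Ehmt2, an H3K9 methyltransferase also known as G9a, had 210 and 238 CPM in DKO, 301 and 307 CPM in Pcgf5KO, 265 and 284 CPM in Pcgf3KO, and 237 CPM in WT. It fell in DKO against Pcgf5KO (−0.44 ± 0.08, adjusted p = 0.0359) and its interaction was −0.65 ± 0.13 (adjusted p = 0.0287). These 3 calls were lost without any 1 of the 4 single-knockout libraries, with adjusted p between 0.11 and 0.39.

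Of 6 tested markers of primordial germ cells, Prdm1 alone was called against WT, higher in Pcgf3KO (1.08% of all genes). Between DKO and Pcgf3KO 0 were higher and 1 was lower (1.0% of all genes), and the interaction passed below 0 for 2 (2.02%). In DKO against Pcgf5KO edgeR called 1 higher and 1 lower, against 0.996% and 1.28% of all genes, and DESeq2 called 1 higher and 2 lower. By edgeR the other markers were not called there, at log2 fold changes of 0.15 for Kit, −0.185 for Prdm14, −0.30 for Prdm1 and −0.71 for Dnd1. Dppa3, which protects DNA methylation in the early embryo, had 18.8 and 25.4 CPM in DKO, 36.1 and 34.9 CPM in Pcgf5KO, 33.6 and 35.6 CPM in Pcgf3KO, and 23.0 CPM in WT. The DKO libraries lay below both single knockouts, and Dppa3 fell in DKO against Pcgf5KO (−0.68 ± 0.14, adjusted p = 0.043), with an interaction of −1.28 ± 0.22 (adjusted p = 0.0164). Tfap2c, a transcription factor of early germ cells, had 35.2 and 49.3 CPM in DKO, 26.4 and 23.2 CPM in Pcgf5KO, 45.7 and 46.1 CPM in Pcgf3KO, and 36.3 CPM in WT. It rose in DKO against Pcgf5KO (0.77 ± 0.15, adjusted p = 0.0428). These 3 calls of Dppa3 and Tfap2c were lost without any 1 of the 4 single-knockout libraries.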
